A study of Homo sapiens with 4 samples.

Results

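RP11-206M11.7, RP11-325I22.2, RP11-973H7.4, AC095067.1 and RP11-693J15.6 are 5 human transcripts that carry no gene name of their own. Their names come from the genomic clone, or the sequence accession of that clone, on which they were first annotated, followed by a running number. They were picked because the counts under each name were far higher with drug than with solvent in both cell lines studied, so their rise was what chose them and is given below as a description, without a test. They are 5 of 43296 gene names in the deposited gene table, and 5 of 17605 names built on a clone or accession.

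The data are single-cell RNA sequencing of H1299, a non-small cell lung cancer line, and HCT116, a colorectal cancer line, made with the 5′ chemistry of 10x Genomics, which reads polyadenylated RNA from its 5′ end. In each line 1 library received the solvent DMSO and 1 received DAC+SB, which is 500 nM DAC (decitabine, an inhibitor of DNA methyltransferases) for 72 h together with 500 nM SB939 (an inhibitor of histone deacetylases) for 18 h. Compounds and medium were renewed every 24 h and the cells were between passage 5 and passage 10. With 1 library per group there was no replicate, no test was made, and every interval below is a 95% interval that covers counting error only. Intervals on counts and their ratios treat each count as independent. In a treated library, the 1% of cells with most of a transcript held 7.36% to 22.8% of its counts. These intervals can therefore be too narrow.

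Clone names mark genes that annotators found but that no naming committee had yet named, most of them long non-coding RNAs or pseudogenes. Many human genes of this kind begin inside a transposable element (TE), because the long terminal repeat (LTR) of an endogenous retrovirus holds a promoter. LTR12C is an LTR of the HERV9 family of retroviruses, LTR12D and LTR12E are related subfamilies, and THE1 elements are LTRs of another retroviral lineage. DNA methylation and histone deacetylation normally keep such LTRs silent, and LTR12 copies are known for starting transcripts when inhibitors of both are given together.

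The 4 libraries held 3578 to 4327 cells and 38927267 to 64524196 gene and TE counts, with a median of 8449 counts per cell in the treated HCT116 library and 15784.5 to 17369.5 in the others. Cell barcodes shared between 2 libraries numbered 18 to 30 per pair, at most 0.805% of a library's cells. The line labels were checked with 10 markers each. The H1299 markers summed to 2688 CPM (counts scaled to the same total in every library) in untreated H1299 against 219 in untreated HCT116, and the HCT116 markers to 137 CPM in untreated HCT116 against 1.19 in untreated H1299. With DAC+SB, EPCAM, CLDN3, CLDN4, ESRP1 and LGALS4 were each at least 4-fold higher in H1299, where 11.0% of all genes were. These are the 5 HCT116 markers with at least 100 counts in an H1299 library. Untreated they had 1 to 51 counts and entered only through treated counts, so this rise was largely fixed by the minimum. The 10 HCT116 markers summed to 38.0 CPM in treated H1299. They summed to 85.3 CPM in treated HCT116. The H1299 markers summed to 1440 CPM in treated H1299 and 346 in treated HCT116, where VIM had 265 CPM against 47.0 untreated, so both lists set the lines less far apart with drug than without. VIM alone gave 2282 of the 2688 CPM, and SNAI2, on the same list, went the other way, at 0.0930 CPM in untreated H1299 and 2.86 in untreated HCT116. NNMT, CEACAM5 and CEACAM6 were at or near 0 in every library and checked nothing. LTR12C loci together had 12010 untreated and 1155776 treated counts in H1299, and 19665 and 1022532 in HCT116.

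RP11-206M11.7 gave more counts than the other 4 in both treated libraries, although gene levels were not compared, since these may not be molecule counts. It had 11 counts in untreated H1299 and 41961 in treated H1299, and 21 counts in untreated HCT116 and 14462 in treated HCT116. These are 0.170, 672, 0.335 and 372 CPM, taken over the gene and TE counts of the library together. Both treated libraries were far above both untreated ones. The ratio of treated to untreated CPM was 11.95 (11.11 to 12.95) on the log2 scale in H1299 and 10.11 (9.50 to 10.81) in HCT116. Its treated level in H1299 was 1.81-fold (1.78 to 1.84) that in HCT116.

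RP11-325I22.2 was nearly silent without drug. H1299 gave 1 count untreated and 2172 treated, and HCT116 gave 1 and 3317, which is 34.8 and 85.2 CPM with drug. A single count gives a wide interval for the ratio, 11.13 (8.65 to 16.44) on the log2 scale in H1299 and 12.38 (9.90 to 17.69) in HCT116. In contrast to RP11-206M11.7 it stood higher in treated HCT116 than in treated H1299, by 2.45-fold (2.32 to 2.59).

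RP11-973H7.4 had no count in untreated H1299 and 5643 with drug, and 9 counts in untreated HCT116 and 2826 with drug. Set against a floor of 3 counts for the empty library, its CPM was 1944-fold higher in treated H1299, which is no strict limit. The HCT116 ratio was 8.98 (8.05 to 10.11) on the log2 scale. The 9 counts in untreated HCT116 lay in 3 cells, 7 of them in 1 cell, so the size of this ratio is loosely set. It was 12.03 once the deepest 5% of cells per library were left out. It was 5.70 with counts of the numbered feature, explained below, dropped because untreated HCT116 does not list it. That setting drops treated counts but keeps 8 untreated counts of the same kind, listed under the plain name. The value 5.70 therefore does not compare like with like. The treated levels were 90.4 CPM in H1299 and 72.6 in HCT116, a 1.25-fold (1.19 to 1.30) difference.

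AC095067.1 was the only one of the 5 with no count in either untreated library. It had 4150 counts in treated H1299 and 3622 in treated HCT116, or 66.5 and 93.0 CPM. These were 1430-fold and 1943-fold above the floor of 3 counts, which again is no strict limit. The treated level was 1.40-fold (1.34 to 1.46) higher in HCT116. The values against the floor hold only if the untreated libraries did not lose counts of a feature that was left unlisted, which is taken up below.

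RP11-693J15.6 stood apart from the other 4 because untreated H1299 already expressed it. It had 341 counts there, 3567 in treated H1299, 1 in untreated HCT116 and 2005 in treated HCT116, or 5.28, 57.1, 0.0160 and 51.5 CPM. The 341 untreated counts were spread over 281 of 3578 cells, 7.85% (6.99% to 8.78%), with at most 4 in a cell. Its ratio was 3.43 (3.27 to 3.60) on the log2 scale in H1299 and 11.66 (9.18 to 16.96) in HCT116, and the untreated lines differed by 331-fold (59.0 to 13113). The HCT116 ratio was 7.88, lower by construction, with treated counts of the numbered feature dropped because untreated HCT116 does not list it. Both 11.66 and 331-fold rest on 1 untreated count and hold only if no unlisted count was lost, which is taken up below. With drug the lines came within 1.11-fold (1.05 to 1.17) of each other, so for this transcript the lines differed far more before treatment than after it.

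**Figure D1:**
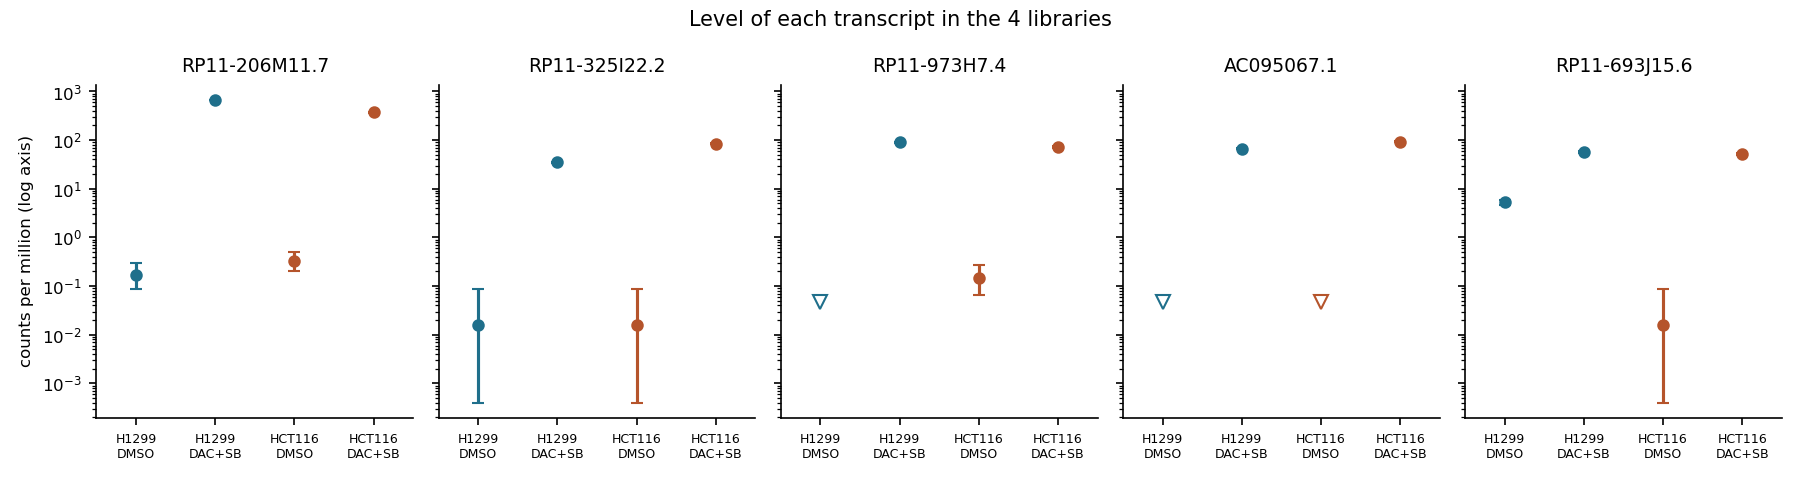
CPM (log axis) of each transcript in the 4 libraries; points are library values, bars are 95% Poisson intervals and open triangles mark the floor of 3 counts where the library had none. The treated libraries lie at 34.8 to 672 CPM, and only RP11-693J15.6 exceeds 1 CPM in an untreated library, at 5.28 CPM in H1299.

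All 5 were at least 4-fold higher in both lines, a rise that is what chose them. Genes were compared where the library with more of the gene had 100 counts or more. At that ratio 11.0% of 14610 genes passed in H1299, 9.63% of 13539 passed in HCT116, and 4.68% of the 12644 genes comparable in both lines passed in both. Of names built on clones or accessions, 395 of 1824 (21.7%) passed in H1299, against 9.52% of the other genes, and 301 of 1287 (23.4%) in HCT116, against 8.19%. In both lines 155 of 1080 (14.4%) passed, against 3.78% of the other genes. Those 155 were 76.0% of the clone-named genes that passed in H1299 and 67.4% of those that passed in HCT116, within the 1080. Clone-named genes at least 4-fold lower numbered 11 in H1299 (0.603%, against 0.349% of all genes) and 56 in HCT116 (4.35%, against 3.69%).

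These shares depend on which genes could be compared. A gene that is nearly silent untreated enters only if it is high with drug, and the minimum let in 10.4% of clone names in H1299 and 7.31% in HCT116, against 54.9% and 52.6% of other names. As a share of all names, clone names passed less often, 2.24% against 5.23% in H1299 and 1.71% against 4.31% in HCT116. With the minimum set on the untreated library, 29 of 1279 clone names (2.27%) passed in H1299, against 1.23% of the other genes, and 24 of 951 (2.52%) in HCT116, against 1.48%. With numbered features, explained below, kept only where both libraries list them, 196 clone names (12.2%) passed in H1299, against 7.36% of other genes, and 133 (12.4%) in HCT116, against 5.59%. No general difference between clone-named and other genes is read from these counts.

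Ranked by the lower of the ratios in the 2 lines, among 823 clone-named genes with at least 100 counts in both treated libraries, RP11-325I22.2 was first, AC095067.1 second, RP11-206M11.7 number 3 and RP11-973H7.4 was number 7. RP11-693J15.6 was number 119, because of its untreated level in H1299. Over 11707 genes of every kind the same 5 took places 1, 2, 4, 12 and 375. The clone-named transcripts next to them were CTC-497E21.4 (lower log2 ratio 9.56), RP11-70C1.1 (9.39), RP11-96C21.2 (9.13), RP11-59N23.3 (8.98) and RP11-672A2.5 (8.73). RP11-973H7.4, at 8.98, lay among them, so no gap separates the chosen names from the rest of the list. A gene without an untreated count enters with a value at the floor of 3 counts and not with its ratio, so its place is a matter of that floor. AC095067.1, set to the floor in both lines, stood below RP11-325I22.2, which had 1 untreated count in each line, although AC095067.1 had more treated counts.

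**Figure D2:**
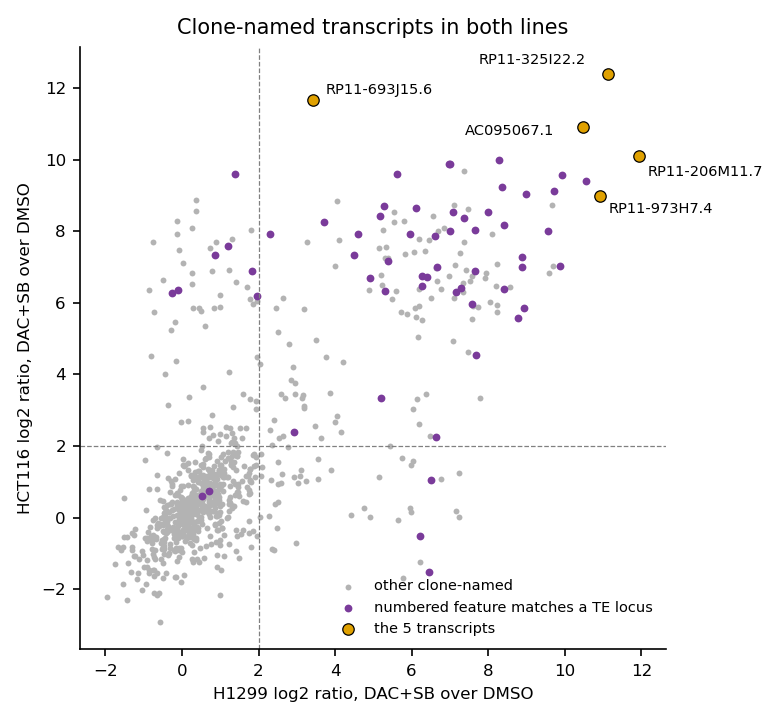
Log2 ratio of treated to untreated CPM in H1299 (x axis) and HCT116 (y axis) for clone-named genes, with an untreated count of 0 set to 3; dashed lines mark 4-fold, purple points are genes whose numbered feature has the per-cell counts of a TE locus, and orange points are the 5 transcripts. RP11-693J15.6 lies at 3.43 in H1299 and 11.66 in HCT116, to the left of the other 4.

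The gene table lists each of the 5 as 2 features, the plain name and the name followed by the number 1. The sources used here do not say what the number stands for. The numbered feature carried most of the treated counts. Its share ran from 68.8% for RP11-325I22.2 in H1299 to 92.7% for RP11-693J15.6 in HCT116, and was larger in HCT116 than in H1299 for all 5. For RP11-206M11.7 it was 72.1% (71.7% to 72.5%) in H1299 and 80.1% (79.4% to 80.7%) in HCT116.

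Because LTRs can act as promoters of such transcripts, the counts of each numbered feature were compared, cell by cell in the treated libraries, with those of every TE locus of at least 100 treated counts. Cosine similarity was used, which is 1 when the counts of both are proportional across cells. For 3 of the 5, a single locus had nearly identical counts. The numbered feature of RP11-206M11.7 had 30255 counts in treated H1299 and 11579 in treated HCT116, and LTR12C locus 4128679 had 30222 and 11568. The counts were equal in 3173 of the 3204 H1299 cells and 2445 of the 2454 HCT116 cells that had either. The cosine was 0.999966, and the next locus reached 0.661.

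RP11-973H7.4 paired in the same way with LTR12C locus 2545976. The numbered feature had 4788 and 2536 counts and the locus 4809 and 2551, H1299 first, equal in 1795 of 1819 and 1279 of 1294 cells. The second locus had a cosine of 0.530, against 0.999 for the first. RP11-325I22.2 paired with a locus of another subfamily, LTR12D locus 4609724. Its numbered feature had 1495 and 2545 counts and the locus 1502 and 2566, equal in 922 of 930 and 1394 of 1415 cells. Here the second locus had a cosine of 0.416, against 0.998.

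AC095067.1 and RP11-693J15.6 had no such partner. The most similar loci were LTR12C locus 4786418 for the numbered feature of AC095067.1, at a cosine of 0.510, and LTR12C locus 2875890 for that of RP11-693J15.6, at 0.468. The unnumbered features matched no locus to that degree either. The closest was RP11-206M11.7 with its own LTR12C locus, at 0.773. Locus numbers are those of the deposited TE table, and the loci and the 5 transcripts were not placed on chromosomes here.

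**Figure D3:**
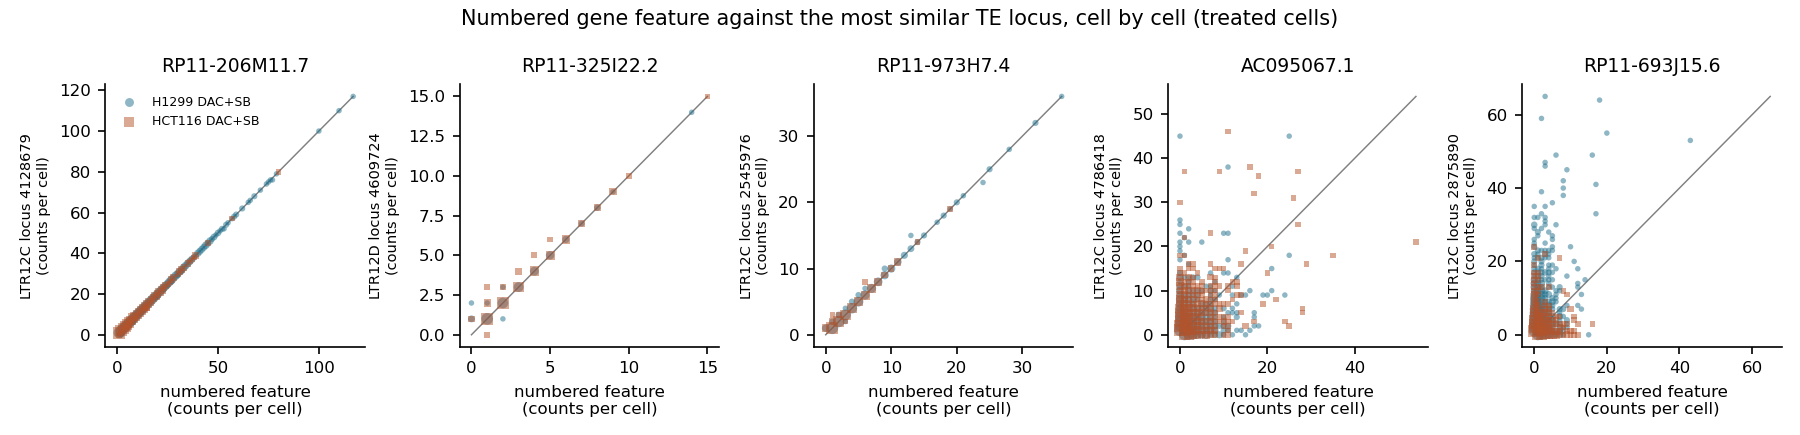
Counts per treated cell of each transcript's numbered feature (x axis) against those of its most similar TE locus (y axis), for H1299 (blue circles) and HCT116 (orange squares), with the line of equality. Marker size grows with the number of cells at that point. Cells of RP11-206M11.7, RP11-325I22.2 and RP11-973H7.4 lie on or next to the line, and those of AC095067.1 and RP11-693J15.6 are scattered.

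Equal counts in nearly every cell mean that the gene and TE tables list the same counts under 2 names for these 3 numbered features. The unnumbered features of these 3 transcripts matched no locus that closely. They too had more counts with drug in both lines, 290 to 11706 treated against 0 to 11 untreated. The rise of the 3 numbered features and the rise of their 3 loci are 1 measurement, not 2. Such pairs were rare among numbered features in general. At a cosine of at least 0.95, 115 of 8747 numbered features of single genes with at least 200 treated counts had a partner, 1.31%. The share was 77 of 893 (8.62%) for clone-named genes and 38 of 7854 (0.484%) for other genes. It was 49 of 125 (39.2%) for clone-named genes at least 4-fold higher in both lines, and 12 of 553 (2.17%) for clone-named genes that had 100 counts or more in both treated libraries and were not. The other 215, with fewer counts in a treated library, had 16 partners (7.44%). Of those 49 partners, 23 were LTR12 loci and 21 were THE1 loci. Of the partners of all 115 features, 51 were LTR12 loci and 42 were THE1 loci. The families of all loci compared were not counted, so no excess of either family is read from these numbers. Among the 10 clone-named genes with the highest lower ratio, 8 had a partner, and among the first 50, 24. The minimum of 200 treated counts lets in a gene nearly silent untreated only if it is high with drug. No general difference between clone-named and other genes is therefore read from these shares. The share among other genes at least 4-fold higher in both lines was not computed. CTC-497E21.4 matched a THE1D locus, and RP11-70C1.1, RP11-96C21.2 and RP11-59N23.3 each matched an LTR12C locus. RP11-672A2.5 had no partner at that cosine. Named genes also held such features, among them those of DHRS2, a short-chain dehydrogenase, with an LTR12D locus, and PARP16, an ADP-ribosyltransferase, and IL16, a cytokine, each with an LTR12C locus. IL16 was chosen after its values were seen.

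The pairs also show how low untreated counts are listed. Numbered features appear in the gene table of a library only from 10 counts up, and unnumbered ones from 1. Where a paired numbered feature was unlisted and its locus had 1 to 9 counts, 141 of those 142 locus counts lay in the same cells under the unnumbered feature, over 55 combinations of feature and library. For RP11-206M11.7 in untreated H1299 these were 8 of 8, for RP11-973H7.4 in untreated HCT116 8 of 8, and for RP11-325I22.2 in untreated H1299 1 of 1. The locus paired with RP11-973H7.4 had no count in untreated H1299, where the transcript had none. The sum of both features, used throughout, therefore kept these low counts, and a ratio of the numbered or the unnumbered feature alone would not compare like with like. In 4 further combinations the locus had 10 or more counts while the numbered feature was unlisted, and there 107 of 6520 counts were found under the unnumbered feature. None of the 3 paired transcripts was among these, but AC095067.1 and RP11-693J15.6 have no paired locus by which to check, so an unlisted count cannot be seen for them.

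For counts per cell, each cell was thinned to 3300 counts so that libraries of different depth could be set side by side, which left out 402 of 4327 treated HCT116 cells. RP11-206M11.7 was found in 71.0% (69.5% to 72.5%) of treated H1299 cells and 47.1% (45.6% to 48.7%) of treated HCT116 cells, the most widespread of the 5. RP11-325I22.2 was in 9.66% and 20.5%, RP11-973H7.4 in 21.6% and 17.3%, AC095067.1 in 16.5% and 17.6%, and RP11-693J15.6 in 14.3% and 12.1%, H1299 first. In these thinned cells the line with the larger share was the line with the larger CPM for each of the 5, although the intervals for AC095067.1 overlapped (15.3% to 17.7% and 16.4% to 18.8%). That order did not hold for 2 of them under other settings. At 2 or more counts RP11-693J15.6 was in 2.39% of H1299 and 3.36% of HCT116 cells, and without thinning AC095067.1 was in 36.9% and 28.3%, each against its CPM, so no order of the lines is read from these shares for either. Unthinned, RP11-206M11.7 was in 90.4% and 61.5% of cells and the others in 22.19% to 53.8%. Thinned untreated cells gave the background, which was 52 of 3578 H1299 cells (1.45%) for RP11-693J15.6, 2 of 3658 HCT116 cells for RP11-206M11.7 and 0 for every other transcript and library. At this depth, 0 cells allow a share of cells with a count of up to 0.0838% in H1299 and 0.0820% in HCT116. At full depth more untreated cells had a count, and RP11-206M11.7 was in 8 of 3578 H1299 cells (0.224%) and 8 of 3658 HCT116 cells (0.219%). Each treated library is 1 cell line, with no other cell type to serve as a background within it, and the part of free RNA in the treated shares was not tested.

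Cells differed in how much of their RNA came from LTR12C. The median share of LTR12C in thinned treated cells was 1.36% in H1299 and 1.97% in HCT116. To see whether the transcripts moved with it, Pearson's r over cells was taken between each transcript and the LTR12C share, leaving out of that share every LTR12C locus paired with a gene feature. That left out 40 loci with 7.18% of LTR12C counts in treated H1299 and 5.65% in treated HCT116. These values describe cells that share a library and a depth. In H1299 r was 0.38 for RP11-206M11.7, 0.30 for AC095067.1, 0.19 for RP11-973H7.4, 0.15 for RP11-693J15.6 and 0.07 for RP11-325I22.2. In HCT116 it was 0.43 for AC095067.1, 0.37 for RP11-206M11.7, 0.27 for RP11-973H7.4, 0.21 for RP11-693J15.6 and 0.15 for RP11-325I22.2. With every LTR12C locus counted, paired ones included, r was much the same, 0.40, 0.30, 0.20, 0.15 and 0.08 in the H1299 order and 0.42, 0.38, 0.28, 0.21 and 0.15 in the HCT116 order. Taken by feature, with paired loci left out, r was 0.08 to 0.43 for numbered features and 0.01 to 0.23 for unnumbered ones, which held fewer counts. For RP11-206M11.7 and RP11-973H7.4 the numbered feature is also listed as an LTR12C locus, so their r largely sets 1 LTR12C locus against others.

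Over all genes found in enough cells, r with the LTR12C share without paired loci had a median of -0.02 in both lines. Its 99th percentile was 0.08 in H1299 (10077 genes) and 0.10 in HCT116 (9323 genes). AC095067.1 was second of 9323 in HCT116 and number 6 of 10077 in H1299, and RP11-206M11.7 was number 3 in H1299 and number 4 in HCT116. The order of these 2 in HCT116 turns with the measure, since Spearman's rho with the whole LTR12C share was 0.35 for AC095067.1 and 0.41 for RP11-206M11.7. In H1299, RP11-51M18.1 (0.41) and MED9 (0.39) ranked above both. RP11-10O17.1 (0.51) did so in HCT116, where IL16 (0.43) also ranked above RP11-206M11.7. A high rank was therefore not particular to the 5. The numbered features of RP11-51M18.1 and IL16 also matched an LTR12C locus. These genes were named after their values were seen. RP11-325I22.2 in H1299, at 0.07, lay below the 99th percentile. With the whole LTR12C share it was 0.08 in thinned cells and 0.16 without thinning, and RP11-693J15.6 in H1299 was 0.15 and 0.25, so the size of both depends on the depth used. With the share of TE counts outside LTR12 elements r was lower, 0.03 to 0.14 over the 5 transcripts and both lines, and with the cell's depth it was between -0.05 and 0.11. With the mitochondrial share it was between -0.11 and 0.06.

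Splitting treated cells into 4 equal bins by that LTR12C share shows the size of the relation. Between the lowest and the highest bin the median share went from 0.424% to 3.18% in H1299 and from 0.636% to 4.82% in HCT116. AC095067.1 was in 4.08% of cells of the lowest bin and 31.5% of the highest in H1299, and in 4.07% and 36.5% in HCT116, the largest ratios of the 5. RP11-206M11.7 was in 48.5% and 87.4% of cells in H1299 and 23.5% and 67.3% in HCT116, so even the lowest bin held it in many cells. Its difference in percentage points was the largest of the 5 in each line.

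For RP11-973H7.4 the lowest and highest bins stood at 13.0% and 31.0% in H1299 and at 6.82% and 32.5% in HCT116. For RP11-693J15.6 they stood at 9.44% and 21.5%, and at 4.28% and 22.3%. RP11-325I22.2 stood at 6.55% and 12.8% in H1299 and 13.1% and 28.1% in HCT116. This was the smallest difference in percentage points of the 5 in each line, but not the smallest ratio in H1299. For all 5 the share of cells was higher in each successive bin in both lines.

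**Figure D4:**
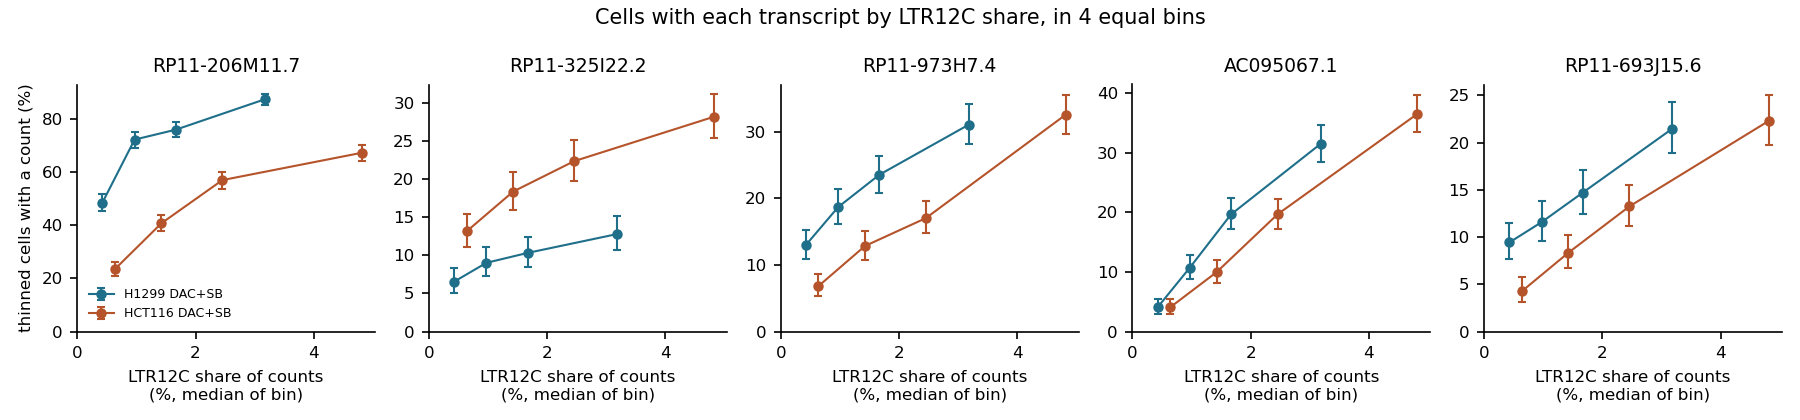
Share of thinned treated cells with a count of each transcript (y axis, %, with 95% Clopper-Pearson intervals) against the median LTR12C share of counts (x axis, %) in 4 equal bins of cells, for H1299 (blue) and HCT116 (orange). Paired LTR12C loci are left out of the x axis, and AC095067.1 climbs to 31.5% of H1299 cells and 36.5% of HCT116 cells in the highest bin.

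Among themselves the 5 gave low correlations over cells. Over the 10 pairs r was 0.01 to 0.12 in H1299 and 0.08 to 0.16 in HCT116. In the same thinned cells r was also low between the 2 features of 1 name. It ran from 0.05 for RP11-325I22.2 in H1299 to 0.36 for RP11-206M11.7 in HCT116. RP11-325I22.2 reached only 0.33 in H1299 with the locus that lists its numbered feature. A low r at this depth therefore does not show that the 5 varied apart. Cells with both members of a pair were 1.02 to 1.53 times as common as the product of the single shares in H1299 and 1.21 to 1.55 times in HCT116. Cells without a count of any of the 5 made up 18.0% of treated H1299 cells and 31.6% of treated HCT116 cells, where the product of the single shares gives 14.7% and 25.2%. At the other end, 4 of the 5 were found in 68 H1299 cells (1.83%) and 89 HCT116 cells (2.27%), against products of 0.853% and 0.770%, and all 5 in 2 and 10 cells. Cells with more of the transcripts had a larger LTR12C share. Its median was 0.636% in H1299 cells with none of the 5 and 3.09% in those with 4, and 1.12% and 5.42% in HCT116.

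**Figure D5:**
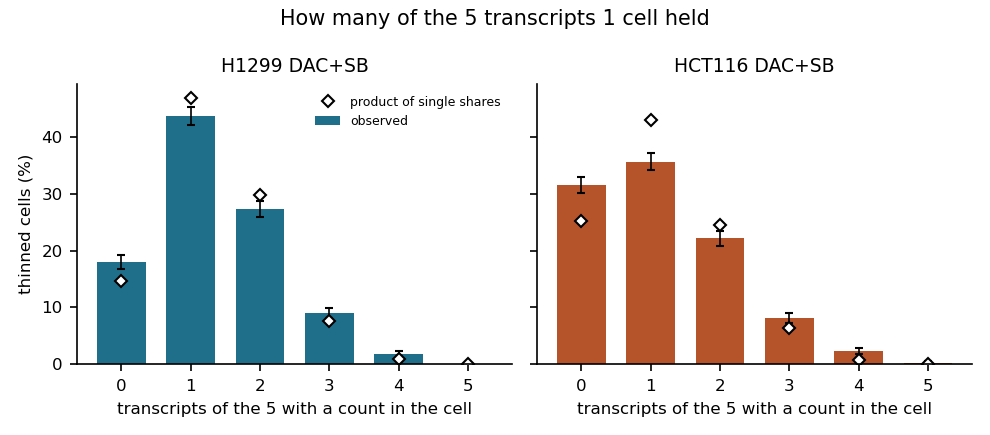
Share of thinned treated cells (y axis, %) by how many of the 5 transcripts had a count in the cell (x axis), with 95% Clopper-Pearson intervals; diamonds are the products of the single shares. The share of cells with none is above the product in both lines, 18.0% against 14.7% in H1299 and 31.6% against 25.2% in HCT116.

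The genes and loci most like each transcript over treated cells were ranked by the lower r of the 2 lines. For RP11-206M11.7 they were DHRS2 (0.16), HIST1H1C, a linker histone (0.15), and DPY19L2P2, a pseudogene (0.14). For AC095067.1 they were MED9, a Mediator subunit (0.17), AC093323.3 (0.13) and RP11-206M11.7 (0.12). RP11-70C1.1 led for the other 3, at 0.17 for RP11-973H7.4, 0.10 for RP11-325I22.2 and 0.09 for RP11-693J15.6. After RP11-70C1.1 came DHRS2 and PARP16 for RP11-973H7.4, RP11-206M11.7 and RP11-973H7.4 for RP11-325I22.2, and RP11-973H7.4 and RP11-206M11.7 for RP11-693J15.6. All of these r are low, although they are the highest of 8407 genes ranked.

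Among TE loci, the paired locus came first for the 3 transcripts that have one. AC095067.1 was most like LTR12C loci 5314495 (0.22), 5274511 (0.19) and 1754507 (0.18), which had no more than 2 counts in an untreated library. RP11-693J15.6 was most like LTR12C locus 5849997 (0.12), LTR12E locus 1255972 (0.10) and LTR12_ locus 5034249 (0.10). The places behind the paired locus were taken by LTR12C loci for the other 3, namely 1184274 (0.26) and 4136494 (0.24) for RP11-206M11.7, 5058516 (0.16) and 2241956 (0.15) for RP11-973H7.4, and 4056075 (0.10) and 2864342 (0.09) for RP11-325I22.2. Every locus named here is of an LTR12 subfamily, as were 408 (85.5%) of the 477 loci ranked, so that is close to the makeup of the loci compared.

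Other names taken from the same clones did not share the high counts. RP11-325I22.1 had 4 counts in treated H1299 and 6 in treated HCT116, RP11-325I22.3 had 3 and 2, RP11-973H7.5 had 9 and 4, and RP11-693J15.5 had 3 and 0, with no untreated count for any. RP11-973H7.3 had 22 counts in each H1299 library, and 21 untreated and 8 treated in HCT116. These names were chosen after their values were seen.

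Genes with known methylated promoters in somatic cells were followed as a comparison. Of 20 cancer-testis genes, which are normally read in germ cells, 16 could be compared in H1299 and 9 were at least 4-fold higher, where 11.0% of all genes were, with a median log2 ratio of 4.66 beside -0.07 over all genes. In HCT116 12 of 15 were, where 9.63% of all genes were, with a median of 6.54 beside -0.23. The same minimum on counts applies to them, and none was at least 4-fold lower in either line. PAGE and MAGE genes have near-identical copies between which counts can be split. PAGE5 was without a count in both untreated libraries and had 577 treated counts in H1299 and 1776 in HCT116. DAZL, an RNA-binding protein of germ cells, had 803 and 251 and likewise none untreated. MAGEA4 was already high in untreated H1299 (8997 counts, 9698 treated) and went from 0 to 624 in HCT116, a difference between untreated lines like that of RP11-693J15.6. Of 9 genes for enzymes and cofactors of silencing, none was at least 4-fold higher in either line. DNMT1, the maintenance DNA methyltransferase, had a log2 ratio of -1.08 in H1299 and -0.62 in HCT116, and UHRF1, which brings it to replicating DNA, -1.28 and -2.13. UHRF1 in HCT116 was the only one of the 9 at least 4-fold lower, where 3.69% of all genes were, and in H1299 none was, where 0.349% were.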

How the data were processed

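The authors deposited whole-number counts of genes and of TE loci per cell. Per the submitters' processing notes, STAR, CASAVA and the builds GRCh38 and hg38 were used. Not given in the sources used here are the counting tool, the annotation, the cell filter and whether these are molecule counts. Cell names gave the library of all 15289 cells, and no doublet caller was run.

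Both features of a name were summed per library and divided by all gene and TE counts. Counts listed in both tables therefore enter that sum under both names. The loci paired at a cosine of at least 0.95 held 0.196% of treated H1299 counts and 0.397% of treated HCT116 counts. Any other counts listed in both tables were not looked for. Intervals are exact (Poisson, Clopper-Pearson, conditional binomial). An untreated 0 was set to 3 counts. Cells were thinned to 3300 counts by a seeded draw. Cosines used numbered features of at least 200 and loci of at least 100 treated counts. Scripts ran in Python 3.11.15 with numpy 2.4.6, scipy 1.17.1 and pandas 2.3.3. The code for ratios, intervals and correlations was tested on simulated data with untreated counts well above 0. That test did not cover untreated counts at or near 0, the floor, the thinning or the cosines.

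The transcripts, lists and alternatives were chosen with earlier results of these data known. Named are the 5 transcripts, the next 5 clone-named by lower ratio, and the 3 genes and 3 loci with the highest lower r, among features in at least 2% of thinned cells of both treated libraries. None of the 5 names is in the reference tables used, so no sequence or position is given.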

Additional observations from a re-analysis of the deposited data

How the results depend on the processing

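No paired analysis was possible because each group is 1 library with no replicate number. No ratio changed direction. Keeping numbered features only where both libraries list them lowered the log2 ratio, by construction since treated counts are dropped, to 10.10 for RP11-206M11.7 in H1299, 9.45 and 10.28 for RP11-325I22.2 (within their wide counting intervals), 8.20 and 5.70 for RP11-973H7.4 and 7.56 and 7.54 for AC095067.1 (H1299 first), and 7.88 for RP11-693J15.6 in HCT116. It lowered the clone-named genes at least 4-fold higher to 196 in H1299 and 133 in HCT116. A minimum of 10 counts gave 1633 in H1299 (26.6%, against 20.1% of other genes) and 1478 in HCT116 (28.5%, against 20.3%). A 2-fold limit gave 668 in H1299 (36.6%, against 15.7%) and 445 in HCT116 (34.6%, against 14.3%). A minimum on the untreated library, chosen after seeing the data, gave 29 and 24, by construction since genes silent untreated cannot enter. Without the 5% of cells with most counts the ratio was 10.73 and 12.03 for RP11-973H7.4 and 10.43 and 10.81 for AC095067.1. In HCT116 this rise for RP11-973H7.4 came with the loss of untreated cells that held most of its 9 counts. Dividing by gene counts alone gave 10.97 for RP11-973H7.4 in H1299 and 11.00 for AC095067.1 in HCT116. Joined names hold none of the 5 transcripts, and a mean over cells gave no ratio where the untreated library was empty.

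Shares of cells depend on depth and threshold, by construction. Without thinning they were, H1299 first, 90.4% and 61.5% for RP11-206M11.7, 32.8% and 38.8% for RP11-325I22.2, 53.8% and 31.8% for RP11-973H7.4, 36.9% and 28.3% for AC095067.1 and 43.2% and 22.19% for RP11-693J15.6. With at least 2 counts they were 49.3% and 26.3%, 1.15% and 4.87%, 5.26% and 4.66%, 4.64% and 6.98%, and 2.39% and 3.36%, in the same order. The r with the whole LTR12C share, computed without thinning, was, in H1299, 0.45 for RP11-206M11.7, 0.16 for RP11-325I22.2, 0.29 for RP11-973H7.4, 0.39 for AC095067.1 and 0.25 for RP11-693J15.6. In HCT116, also without thinning, it was 0.38 for RP11-206M11.7 and 0.45 for AC095067.1. In thinned HCT116 cells r with all TE counts was 0.32 for RP11-206M11.7, and Spearman's rho with the LTR12C share was 0.35 for AC095067.1. The cause was not tested. The LTR12C share without paired loci was chosen after seeing the data and moved no r by more than 0.05.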
